A study of Mus musculus with 24 samples.

Results

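Fed livers of mice lacking Gpt2 in the liver were compared with fed livers of floxed control mice, in 11 of the 24 liver RNA-seq libraries that the labels name. The 5 control fed libraries have fl/fl in their titles and the genotype label Control, while the design text of the series calls these mice WT. The 6 knockout fed libraries have KO in their titles, and the design text describes the deletion as liver specific. Mice of both groups had free access to food. Titles of both groups also carry the letter M. Control and knockout mice fasted for 18 h were set beside the fed ones at single points. The sources used here give neither strain, age nor the driver of the recombinase. They also do not state that libraries came from different animals, and p-values therefore describe only how these samples spread. The labels name a sixth control fed library, whose file is truncated and was left out. Members were all genes that passed a filter on low counts, 16757 of the 41388 genes in the files.

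Gpt2 encodes the mitochondrial alanine transaminase. The enzyme moves the amino group of alanine onto 2-oxoglutarate, which leaves pyruvate and glutamate, and in liver that pyruvate can enter glucose synthesis. Gpt encodes the cytosolic enzyme of the same reaction. Hepatocytes form most of the mass of the liver. Sinusoidal endothelial cells line its capillaries, Kupffer cells are its resident macrophages, and stellate cells store retinoids beside the endothelium.

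Counted reads ran from 27652429 to 40022818 in the control fed libraries (median 29233934, n = 5) and from 23032635 to 44543239 in the knockout fed libraries (median 34044730, n = 6). Duplicates were not found among libraries of 1 fed group: over 25 pairs, the chi-square per degree of freedom of their counts lay between 37.4 and 152. All 15 hepatocyte markers were detected, and their summed level had overlapping ranges in the groups, with a mean ratio of knockout to control of 1.01. Their median log2 fold change was -0.04. In the quasi-likelihood test of edgeR 3 of the 15 had an unadjusted p under 0.05 in the lower direction (3.63% of all genes), and none in the higher. Leaving out 1 fed library gave 0 to 2 in the lower direction. Of 10 pancreas markers 5 were at 0 in every fed library, and 8 kidney tubule markers together stayed at or under 2.82 CPM. CPM here is a gene's count per M counted reads after TMM scaling. Xist lay between 0 and 0.542 CPM and Ddx3y, a gene of the Y chromosome, between 28.1 and 57.5 CPM in the 11 libraries. On the first principal component of log2 CPM (20.2% of the variance over 9330 genes) all 6 knockout libraries had negative scores, and so did control fed replicate 4.

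The targeted gene was low in every knockout library. Gpt2 (ENSMUSG00000031700, GRCm38 chromosome 8, 85492576 to 85527560, forward strand) stood at 362.5, 389, 307, 347 and 447 CPM in control fed libraries 1 to 5. In the knockout fed libraries its level ran from 48.3 through a median of 58.9 to 78.0 CPM. Every knockout library lay below every control library. The mean fell from 370 ± 51.9 CPM (SD, n = 5) to 60.5 ± 11.3 CPM (SD, n = 6), 16.3% of the control mean. The log2 fold change was -2.61 ± 0.19 (SE), with a Benjamini-Hochberg adjusted p of 1.55e-08 in the quasi-likelihood test of edgeR. A count covers the whole gene, undeleted exons included, and the sources used here do not name the deleted exons. In fasted livers the log2 fold change of Gpt2 was -2.64 ± 0.19 (SE). The library labelled control fasted replicate 4 carried kidney tubule transcripts at 13370 CPM and was left out of the fit. With it included, the fed log2 fold change was -2.61 with an adjusted p of 0.116 in edgeR's test, so the call ended.

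Gpt, the cytosolic counterpart (chromosome 15, 76696764 to 76699674), did not stand higher where Gpt2 was low. It was at 380, 365, 373, 383 and 498.5 CPM in control fed libraries 1 to 5, and between 284 and 338 CPM in the knockout fed libraries, with a median of 314 CPM. All knockout libraries again lay below all controls, and control fed replicate 5 stood above the other 4 controls. The exact two-sided permutation test of mean log2 CPM gave p = 0.00433, the lowest two-sided p possible with 462 arrangements of 5 against 6. Over all genes the log2 fold change of Gpt was -0.34 ± 0.13 (SE), with an adjusted p of 0.409 in edgeR's quasi-likelihood test, which did not pass. In fasted livers it was 0.06 ± 0.13 (SE).

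**Figure D1:**
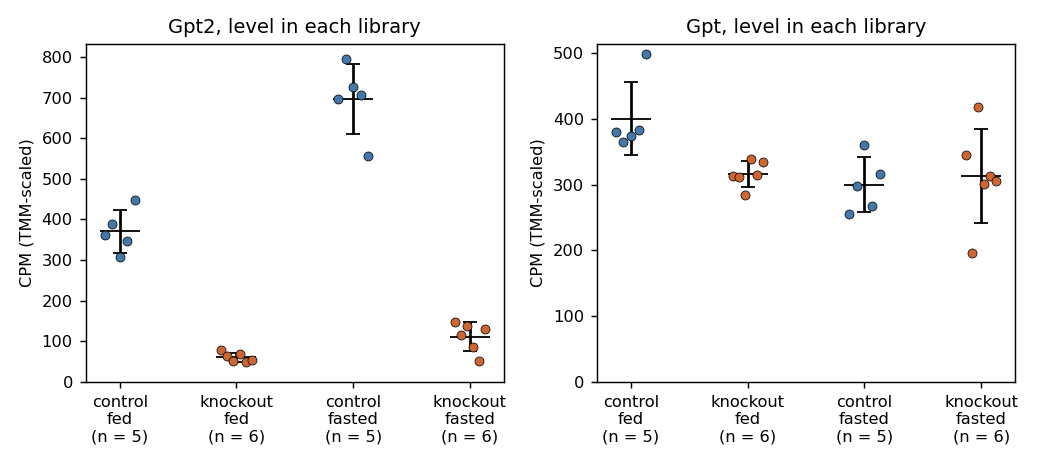
Level of Gpt2 (left) and Gpt (right) in TMM-scaled CPM in each library, on axes that start at 0. Points are libraries, bars are the mean and SD of 5 or 6 libraries per group. Gpt2 lies between 307 and 447 CPM in control fed and between 48.3 and 78.0 CPM in knockout fed livers.

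Across the transcriptome Gpt2 was the 1 gene of 16757 that passed an adjusted p of 0.05 in edgeR's quasi-likelihood test (0.00597% of genes tested), and it was lower in the knockout. No gene was called higher. At an unadjusted p under 0.05 there were 1509 genes (9.01%), of which 900 were higher (5.37%) and 609 lower (3.63%) in knockout livers. The levels of 197 genes (1.18%) did not overlap between the groups, 117 with all knockout libraries higher (0.698%) and 80 with all lower (0.477%). Fold changes were centred near 0, with 50.4% of genes above it. The same contrast in fasted livers gave 672 genes at an unadjusted p under 0.05 (4.01%), of which 457 were higher (2.73%) and 215 lower (1.28%), and 1 called gene, Gpt2. The number called depended on the tool: DESeq2 called 68 genes on the same libraries, 52 higher and 16 lower. Of these 68 genes, 20 had a mean log2 CPM below 0, where a few reads set the value, and 36 had at least 2. Leaving out control fed replicate 4 raised the edgeR count to 13 genes, leaving out knockout fed replicate 4 raised it to 8, control fed replicate 2 to 5 and knockout fasted replicate 6 to 3.

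At an adjusted p under 0.1 there were 16 genes (0.0955%), 10 higher (0.0597%) and 6 lower (0.0358%) in the knockout. Those with the 10 smallest p were Gpt2, Kdr, Orm2, Msn, Slc4a4, Paqr9, Dll4, Zfp871, Foxa1 and Eif3d. Apart from Gpt2 none of them passed 0.05 in edgeR, and DESeq2 called all 10. Each of them was ranked by this contrast, so their lack of overlap is a description of the ranking.

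Kdr, the main signalling receptor for vascular endothelial growth factor, came closest. Its levels in control fed libraries 1 to 5 were 25.5, 19.3, 16.1, 27.7 and 23.6 CPM, and those in the knockout fed libraries ran from 30.7 to 51.8 CPM with a median of 40.2 CPM. The lowest knockout library lay above the highest control. The log2 fold change was 0.87 ± 0.16 (SE), with an adjusted p of 0.0511 in edgeR's test. Over 34 alternative fits its log2 fold change stayed between 0.76 and 0.95, and its adjusted p lay between 0.00338 and 0.248, under 0.05 in 12 of them.

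Dll4 encodes a Notch ligand of endothelial cells. It was at 0.692, 1.03, 1.29, 1.48 and 1.37 CPM in control fed libraries 1 to 5 and between 1.94 and 7.43 CPM in the knockout fed libraries (median 3.82 CPM). Every knockout library lay above every control, and knockout fed replicate 3 was the highest. The log2 fold change was 1.79 ± 0.38 (SE), with an adjusted p of 0.0901 in edgeR's test.

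Msn encodes moesin, which ties actin filaments to the cell membrane. It stood at 12.2, 8.57, 10.1, 11.9 and 10.5 CPM in control fed libraries 1 to 5. The knockout fed libraries lay between 16.0 and 19.5 CPM, except replicate 3 at 27.5 CPM. The groups did not overlap, and the log2 fold change was 0.85 ± 0.17 (SE) with an adjusted p of 0.0874 in edgeR's test. Without knockout fed replicate 3 it was 0.73. In fasted livers Msn had a log2 fold change of 0.79 ± 0.17 (SE), with an unadjusted p of 6.08e-05.

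Slc4a4 and Paqr9 are more abundant transcripts. Slc4a4, a sodium bicarbonate cotransporter, was at 64.7, 65.7, 75.4, 78.0 and 67.0 CPM in the controls and at 85.8 to 130 CPM in the knockouts (median 104 CPM). Its log2 fold change was 0.58 ± 0.12 (SE). Paqr9, a membrane protein of the progestin and adipoQ receptor family, was at 271, 258, 231, 203 and 272 CPM in the controls. It lay between 298 and 511 CPM in the knockouts (median 385 CPM), a log2 fold change of 0.63 ± 0.13 (SE). In both genes every knockout library exceeded every control library, and the adjusted p in edgeR's test was 0.0874 and 0.0901.

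Foxa1 and Eif3d were on the low side in the knockout. Foxa1, a forkhead factor that opens chromatin at liver genes, stood at 26.7, 22.3, 38.5, 30.4 and 27.2 CPM in control fed libraries 1 to 5. In the knockout fed libraries it lay between 14.3 and 19.2 CPM (median 17.0 CPM), all below the controls, with a log2 fold change of -0.80 ± 0.17 (SE). Eif3d, a subunit of translation initiation factor 3, went from a control range of 33.4 to 40.2 CPM to a knockout range of 21.96 to 28.8 CPM. Its log2 fold change was -0.57 ± 0.12 (SE), and both genes had an adjusted p of 0.0983 in edgeR's test.

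**Figure D2:**
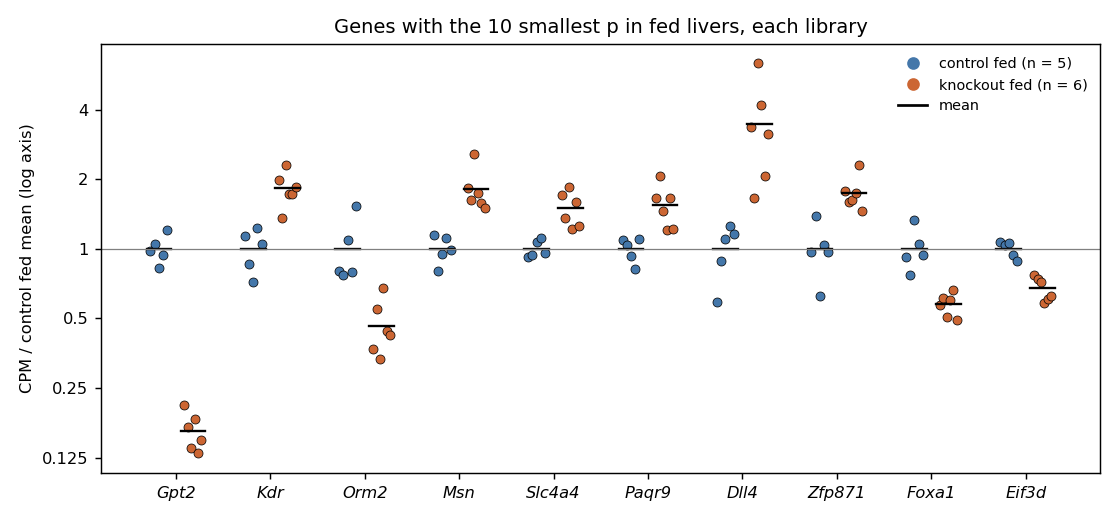
Level of the genes with the 10 smallest p in each fed library, divided by the gene's control fed mean, on a log axis. Points are libraries (5 control, 6 knockout) and black lines are group means. The groups do not overlap in any of the 10 genes, and Gpt2 stands furthest from 1.

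Markers of sinusoidal endothelial cells stood higher as a group in knockout livers. The list was chosen with earlier results of these data known and holds Kdr, so its counts are a description. The list of 21 markers summed to 506, 432, 373, 493.1 and 412 CPM in control fed libraries 1 to 5, and to between 540 and 742 CPM in the knockout fed libraries (median 604 CPM). The 2 ranges did not overlap. Means were 443 ± 55.8 CPM (SD, n = 5) and 607 ± 73.4 CPM (SD, n = 6), a ratio of 1.37. In bulk RNA, more cells of a type and more RNA per cell cannot be told apart. Of the 21 members 20 had a log2 fold change above 0 (50.4% of all genes did) and the median was 0.53, against 0.00 over all genes. In edgeR none was called, 12 had an unadjusted p under 0.05 in the higher direction (5.37% of all genes did) and none in the lower. DESeq2 called 2 members higher, Kdr and Mrc1. With each fed library left out in turn the median lay between 0.41 and 0.57 and the count between 10 and 13. Knockout fed replicate 3 had the highest sum.

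The members near the top of that list are surface proteins of the vessel wall. Mrc1, the mannose receptor with which these cells take up glycoproteins, was at 15.4, 13.3, 9.65, 16.1 and 13.6 CPM in control fed libraries 1 to 5 and at 17.1 to 30.6 CPM in the knockouts. The groups did not overlap, and the log2 fold change was 0.84 ± 0.19 (SE), with an adjusted p of 0.099 in edgeR's test. Other members were named after their values were seen, and none of them passed. Tek, the angiopoietin receptor, went from a control mean of 5.33 ± 1.44 CPM (SD, n = 5) to 10.7 ± 2.88 CPM (SD, n = 6). Ptprb, the vascular endothelial protein phosphatase, was at 40.4 ± 6.69 CPM (SD, n = 5) and 64.3 ± 10.2 CPM (SD, n = 6). Cdh5, the cadherin of endothelial junctions, was at 12.7 ± 3.95 and 19.8 ± 3.81 CPM (SD, n = 5 and 6). Eng, a co-receptor of the TGF-beta family, was at 40.3 ± 9.26 and 56.1 ± 7.37 CPM (SD, n = 5 and 6). Tek did not overlap between the groups, while Ptprb, Cdh5 and Eng did.

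Some other members of the list, also named after their values were seen, had smaller log2 fold changes than Mrc1. Stab2, which clears hyaluronan, had a log2 fold change of 0.34 ± 0.17 (SE) and an unadjusted p of 0.0506. Clec4g, a lectin of these cells, had 0.31 ± 0.18 (SE) and an unadjusted p of 0.102 in edgeR's test, and Stab1 had 0.18. Whether these differ from Kdr or Tek was not tested. In fasted livers the list had a median of 0.40, with 10 of 21 members at an unadjusted p under 0.05 in the higher direction (2.73% of all genes), and Cdh5 had a log2 fold change of 0.86 ± 0.20 (SE). Fed and fasted livers share no library.

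The summed markers of the other cell types overlapped between the groups. The 15 Kupffer cell markers summed to 231 to 355 CPM in the controls and 287 to 428 CPM in the knockouts, which overlap, with a ratio of means of 1.16. Their median log2 fold change was 0.27, with 3 members at an unadjusted p under 0.05 in the higher direction (5.37% of all genes). Leaving out control fed replicate 5 raised the 3 to 6, and leaving out replicate 3 of either group lowered it to 1. The smallest p belonged to the complement genes C1qc (0.42 ± 0.15 SE, adjusted p = 0.373 by edgeR) and C1qb (0.43 ± 0.18 SE, adjusted p = 0.466 by edgeR). Knockout fed replicate 3 again had the highest Kupffer sum, 428 CPM against at most 314 CPM in the other 5 knockouts, and without it the median was 0.15. The same list had a median of 0.56 in fasted livers, where 10 of 15 members were at an unadjusted p under 0.05 in the higher direction (2.73% of all genes).

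Of 17 stellate cell and fibroblast markers, Reln had the smallest p, with a log2 fold change of 0.48 ± 0.18 (SE). Pdgfrb followed at 0.49 ± 0.26 (SE). Their list had a median of 0.14, and its sums overlapped (232 to 315 CPM in controls, 270 to 338 CPM in knockouts). Of 10 cholangiocyte markers 7 were tested. Krt19, a keratin of bile ducts, was at 21.3 CPM in control fed replicate 3 and at or under 1.90 CPM in the other 10 fed libraries. Its log2 fold change was -2.06 with that library and 0.36 without it. It did not pass. Red blood cell markers summed to 284 to 633 CPM in controls and 246 to 450.5 CPM in knockouts.

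**Figure D3:**
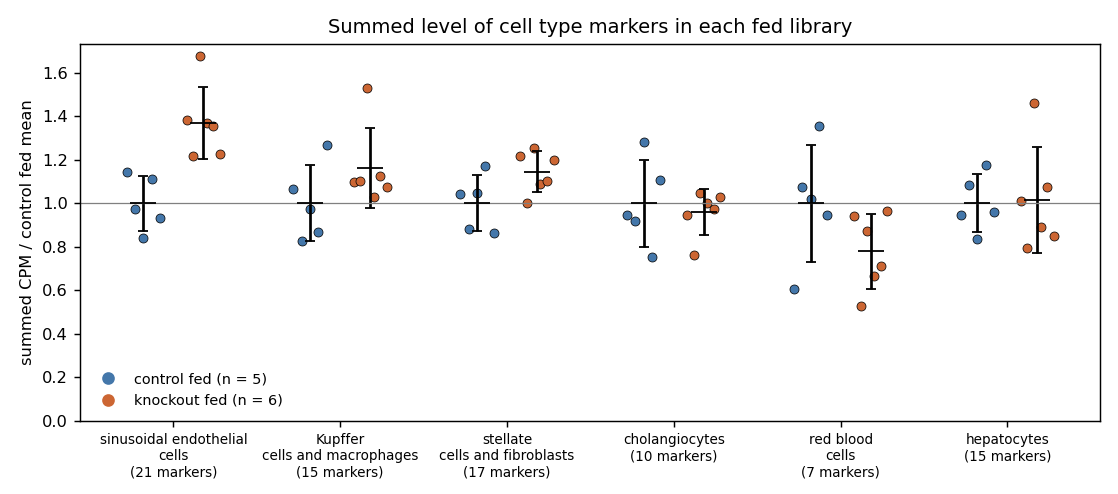
Summed CPM of the markers of 6 cell types in each fed library, divided by the control fed mean, on an axis that starts at 0. Points are libraries, bars the mean and SD. The endothelial sums of the 6 knockout libraries all lie above those of the 5 controls, and the other 5 cell types overlap.

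Acute phase proteins, which the liver secretes in inflammation, were mostly below control levels. Of 26 members 4 had a log2 fold change above 0, the median was -0.22, and 7 had an unadjusted p under 0.05 in the lower direction (3.63% of all genes) with none in the higher. Leaving out control fed replicate 5 reduced the 7 to 3, and leaving out knockout fed replicate 2 or 5 reduced it to 4. The leading members were Orm2 and Orm1, which encode alpha-1-acid glycoproteins, carriers of basic drugs in plasma. In fasted livers the list median was 0.29, with 3 members at an unadjusted p under 0.05 in the higher direction (2.73% of all genes) and none in the lower. In edgeR's test of the genotype by feeding interaction 12 of the 26 members had an unadjusted p under 0.05 (4.69% of all genes). None of the 26 was called there.

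Orm2 (chromosome 4, 63362449 to 63365878, GRCm38) was at 20.1, 19.4, 27.6, 20.04 and 38.5 CPM in control fed libraries 1 to 5. In the knockout fed libraries it lay between 8.38 and 17.0 CPM, with a median of 10.9 CPM. The groups did not overlap, and control fed replicate 5 was the highest. The log2 fold change was -1.10 ± 0.22 (SE), with an adjusted p of 0.0874 in edgeR's test, and it was -0.90 without control fed replicate 5. Orm1, nearby on chromosome 4 (63344560 to 63348163), stood at 512, 524, 635, 525.7 and 664 CPM in the controls and at 299 to 458 CPM in the knockouts (median 389 CPM). Its log2 fold change was -0.60 ± 0.13 (SE), with an adjusted p of 0.0983 in edgeR's test. Orm3 had a log2 fold change of -1.08 ± 0.54 (SE) at a control mean of 3.55 CPM. These genes are close paralogs, so reads may have been divided among them. In fasted livers Orm2 had a log2 fold change of 0.00 ± 0.22 (SE) and Orm1 one of 0.15 ± 0.13 (SE).

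The Orm genes are induced by C/EBP factors in the acute phase, and the 250 bases before their starts are shown because Orm2 had the smallest p, after Gpt2, of the genes that were lower in the knockout. RefSeq promoters (GRCm38.p6) were matched for 2 of the 3 genes. Orm2 spans chr4:63362199-63362448 and Orm3 chr4:63355908-63356157, both on the forward strand and written 5′ to 3′. Capitals mark matches to the C/EBP motif TTGCNNAA, searched on both strands.
Orm2: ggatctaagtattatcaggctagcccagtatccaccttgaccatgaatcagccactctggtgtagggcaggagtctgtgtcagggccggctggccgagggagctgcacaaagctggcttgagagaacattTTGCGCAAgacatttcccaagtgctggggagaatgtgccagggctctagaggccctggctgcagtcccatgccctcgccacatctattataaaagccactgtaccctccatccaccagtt
Orm3: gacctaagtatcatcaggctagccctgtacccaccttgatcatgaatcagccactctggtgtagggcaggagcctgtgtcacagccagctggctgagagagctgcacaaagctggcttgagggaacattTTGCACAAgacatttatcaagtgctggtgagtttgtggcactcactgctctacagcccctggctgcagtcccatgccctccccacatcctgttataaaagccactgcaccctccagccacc
Each window held 1 match, TTGCGCAA in Orm2 and TTGCACAA in Orm3, beginning 120 and 121 bases before the start. The aligned windows were identical at 85.5% of 255 columns. The motif was in 9.56% of the 32851 promoter windows of this length. A match describes letters, not binding.

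Serum amyloid genes followed 1 library. Saa1, an apolipoprotein of the acute phase, was at 31.1, 31.4, 58.6, 49.7 and 419 CPM in control fed libraries 1 to 5, and between 15.1 and 71.2 CPM in the knockouts. Saa2 and Lcn2, chosen like Saa1 after values were seen, were at 156 and 78.3 CPM in control fed replicate 5 and at or under 12.9 and 15.3 CPM in the other 4 controls. Without that library the log2 fold change of Saa1 was -0.28 (from -1.75) and that of Saa2 was -0.21 (from -2.20). Socs3, an inhibitor of cytokine signalling, did not depend on it. Its levels were 14.02, 7.24, 20.7, 6.79 and 11.7 CPM in the controls and 3.24 to 8.58 CPM in the knockouts (median 4.37 CPM). The groups overlapped, and the log2 fold change of -1.32 ± 0.37 (SE) had an adjusted p of 0.234 in edgeR's test, with -1.34 when control fed replicate 5 was left out.

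Major urinary proteins are pheromone carriers that male mouse liver makes in large amounts under growth hormone. All 21 tested Mup genes had a log2 fold change below 0, with a median of -0.98. None was called by edgeR or DESeq2, and 7 had an unadjusted p under 0.05 in the lower direction (3.63% of all genes did). That count was 12 with the fed libraries alone, 13 with GC offsets, 3 with library totals and between 3 and 10 on leaving out 1 fed library. Their reads can be divided among near-identical copies, so their summed level is the safer measure. It was 10441, 10724, 18061, 12014 and 15349 CPM in control fed libraries 1 to 5 and ranged from 6164 to 11125 CPM in the knockouts, with overlap. The mean was 13318 ± 3291 CPM (SD, n = 5) and 9170 ± 1652 CPM (SD, n = 6), 68.9% of control. Controls 3 and 5 were the highest. Without control fed replicate 3 the list median was -0.80. The 7 members became 3 without control fed replicate 3 or 5 or knockout fed replicate 3, 4 without knockout fed replicate 6, and 10 without control fed replicate 1 or knockout fed replicate 2. Mup9 had the smallest p, with a log2 fold change of -1.16 ± 0.35 (SE). Mup14 followed at -1.33 ± 0.48 (SE), and Mup20, darcin, had -0.66 ± 0.37 (SE). In fasted livers the list median was -0.09.

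Male-biased liver genes, a list that shares 5 members with the Mup family, had 2 of 23 tested members above 0 (50.4% of all genes were), a median of -0.45 and 3 members at an unadjusted p under 0.05 in the lower direction (3.63% of all genes). The 3 became 7 with the fed libraries alone or with GC offsets, 5 with length offsets and 2 with library totals. On leaving out 1 fed library they lay between 2 and 6. They became 6 without control fed replicate 4 or knockout fed replicate 2, and 5 without knockout fed replicate 1. Their summed level was 8866, 8649, 13792, 8271 and 10832 CPM in control fed libraries 1 to 5 and 5395 to 7434 CPM in the knockouts (median 6924 CPM), without overlap. Gstp1, a glutathione transferase, was at 1108, 1300, 2129, 1084 and 1782 CPM in control fed libraries 1 to 5 and at 542 to 1032 CPM in the knockouts. The groups did not overlap, and the log2 fold change was -0.83 ± 0.29 (SE), with an adjusted p of 0.391 in edgeR's test. Moxd1 had 38.6 and 11.4 CPM in control fed replicates 5 and 3 and at most 0.249 CPM in the other 9 fed libraries, so its fold rests on those 2. Of 17 tested female-biased genes 11 were above 0, with a median of 0.34 that became -0.09 without knockout fed replicate 5. Abcd2, a peroxisomal transporter, was at 1.29 to 9.49 CPM in controls and 5.89 to 34.8 CPM in knockouts. Cyp17a1, a steroid hydroxylase, stood at 19.6 and 21.6 CPM in knockout fed replicates 5 and 3 and at or under 5.325 CPM in the other 9 fed libraries. Of 18 tested genes of the growth hormone and IGF axis 1 was higher and 2 lower at an unadjusted p under 0.05 (5.37% and 3.63% of all genes). The log2 fold changes of this list ran from -1.58 to 1.27, with a median of 0.12. Among them Stat5a, through which growth hormone acts, had 0.51 ± 0.21 (SE). None of these passed.

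Cholesterol synthesis genes leaned upward together in fed livers. Of 28 members 26 had a log2 fold change above 0, with a median of 0.41. None was called by edgeR or DESeq2, and 2 had an unadjusted p under 0.05 in the higher direction (5.37% of all genes did), Acat2 (0.39 ± 0.16 SE) and Hsd17b7 (0.65 ± 0.28 SE). The count was 12 when the fed libraries were fitted alone. Many of the members are targets of the transcription factor SREBP2. Idi1, the isomerase that makes both building blocks of isoprenoids available, was named after its values were seen. Its log2 fold change lay at the top of the list's range. Idi1 was at 72.9, 47.3, 29.7, 47.99 and 18.9 CPM in control fed libraries 1 to 5 and at 55.1 to 130 CPM in the knockouts (median 78.8 CPM). The groups overlapped through control fed replicate 1, the highest control. Its log2 fold change was 1.001 ± 0.57 (SE), with an adjusted p of 0.662 in edgeR's test. The summed level of the list was 3770 to 6543 CPM in controls and 5314 to 8488 CPM in knockouts. Without control fed replicate 1 the median was 0.57 and 5 members had an unadjusted p under 0.05, and without knockout fed replicate 1 they were 0.32 and none. The count was also 0 without control fed replicate 2 or 5 and 1 without control fed replicate 3 or knockout fed replicate 5. In fasted livers the median was -0.28.

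Genes of fatty acid oxidation under PPARA had 9 of 39 members at an unadjusted p under 0.05 in the higher direction (5.37% of all genes) and 1 in the lower, Acot8. The median was 0.11. The 9 became 12 with library totals and 6 with length offsets. They became 3 without control fed replicate 3, 4 without control fed replicate 5 or knockout fed replicate 5, and 5 without control fed replicate 1 or knockout fed replicate 2 or 3. Acot4, a peroxisomal acyl-CoA thioesterase, stood at 8.68, 8.75, 8.53, 11.8 and 11.2 CPM in the controls and at 9.03 to 24.0 CPM in the knockouts (median 18.8 CPM). The ranges overlapped by knockout fed replicate 4, and the log2 fold change was 0.83 ± 0.19 (SE) with an adjusted p of 0.162 in edgeR's test. DESeq2 called it. Cd36, a fatty acid uptake receptor, had 0.96 ± 0.26 (SE), and DESeq2 called it too. Acsl1, Acadm, Cyp4a10, Cyp4a14 and Cpt1a were among the 9, with log2 fold changes of 0.33, 0.29, 0.67, 1.33 and 0.28. In fasted livers the median of the list was -0.08, with none of its members at an unadjusted p under 0.05 in the higher direction.

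Lipid synthesis showed no common direction. Of 34 tested members 1 was higher and 3 lower at an unadjusted p under 0.05 (5.37% and 3.63% of all genes). The list median was -0.07. Elovl5, a fatty acid elongase, had a log2 fold change of 0.49 ± 0.14 (SE). Mid1ip1, an activator of acetyl-CoA carboxylase, was at 92.1 CPM in control fed replicate 5, and its log2 fold change of -0.67 became -0.28 without that library. Thrsp, a lipogenic partner of Mid1ip1, was at 428 and 412 CPM in control fed replicates 3 and 5 and at 44.4 to 194.5 CPM in the other 9 fed libraries. Of 23 lipoprotein genes 9 had a log2 fold change above 0 and 14 below it, with a median of -0.01. At an unadjusted p under 0.05 there were 2 higher (5.37% of all genes) and none lower. Among these genes Pltp, which transfers phospholipids between particles, had 0.68 ± 0.20 (SE), and Apob had 0.43 ± 0.13 (SE). Neither passed.

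The list of alanine and pyruvate handling had 21 members and, besides Gpt2, no called gene. Gpt and Pdhb, a subunit of pyruvate dehydrogenase, were at an unadjusted p under 0.05, with log2 fold changes of -0.34 and -0.33 ± 0.12 (SE). Mpc1 and Mpc2 form the carrier that brings pyruvate into mitochondria. Mpc2 was at 77.3 ± 8.94 CPM (SD, n = 5) in controls and 90.6 ± 11.4 CPM (SD, n = 6) in knockouts, and Mpc1 at 24.9 ± 1.75 and 28.4 ± 2.66 CPM (SD, n = 5 and 6). Pcx, pyruvate carboxylase, had a log2 fold change of 0.03 ± 0.13 (SE). The median over the list was 0.03.

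Gluconeogenic genes had 3 members higher and 2 lower of 23 at an unadjusted p under 0.05 (5.37% and 3.63% of all genes). Their median was -0.05. Nr4a1, an orphan receptor that glucagon induces, was at 0.613 to 1.90 CPM in the controls and 1.12 to 6.88 CPM in the knockouts, a log2 fold change of 1.49 ± 0.47 (SE) with an adjusted p of 0.29 in edgeR's test. Slc37a4, the glucose-6-phosphate transporter, had -0.45 ± 0.15 (SE). Pck1, the cytosolic PEP carboxykinase, was at 1897, 3983, 828, 1843 and 2127 CPM in the controls and 1648 to 2263 CPM in the knockouts, so the controls spread more widely and enclosed the knockouts. Its log2 fold change was -0.14 ± 0.26 (SE), and 0.21 without control fed replicate 2. G6pc, glucose-6-phosphatase, had 0.46 ± 0.40 (SE). Irs2, an insulin receptor substrate, ran from 4.24 to 30.1 CPM in controls and 26.1 to 41.6 CPM in knockouts, a log2 fold change of 1.10 ± 0.36 (SE) that did not pass. Insr had 0.25 ± 0.10 (SE).

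Amino acid catabolism did not separate the groups. Of 50 tested members none had an unadjusted p under 0.05 (9.01% of all genes did), and the median was -0.04. Prodh, proline dehydrogenase, had a log2 fold change of -0.38 ± 0.20 (SE). Of 8 urea cycle genes Slc25a13, the aspartate-glutamate carrier citrin, was at 134, 142, 119, 135 and 151 CPM in control fed libraries 1 to 5 and at 156 to 183 CPM in the knockouts. These did not overlap, and its log2 fold change was 0.27 ± 0.09 (SE), with an adjusted p of 0.375 in edgeR's test. Arg1, arginase, had -0.16 ± 0.12 (SE). The median of 29 tested ATF4 targets, which respond to amino acid shortage, was 0.05. Of these targets 2 (6.9%) had an unadjusted p under 0.05, against 9.01% of all genes. Those 2 were Psat1, at or under 0.112 CPM in controls and 0.792 CPM in knockouts, and Fgf21, at or under 0.167 and 0.791 CPM. Both are near 0 reads, so no fold is given.

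**Figure D4:**
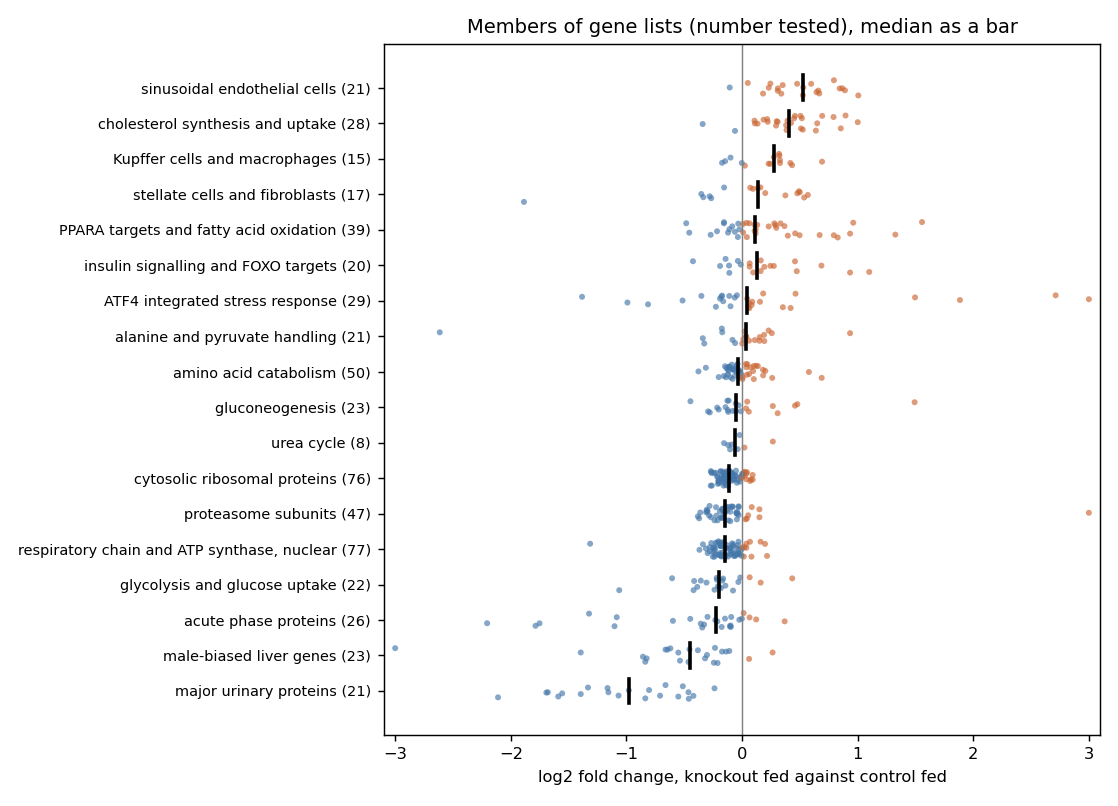
Log2 fold change of each tested member of 18 gene lists, knockout fed against control fed, with the list median as a black bar. Orange points are above 0 and blue below, and 3 members beyond the axis limit of 3 are drawn at it. Endothelial markers lie furthest to the right (median 0.53) and major urinary proteins furthest to the left (median -0.98) of the lists drawn.

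Several lists of genes that most cells use sat slightly below 0. Of 77 respiratory chain and ATP synthase genes of the nucleus 10 had an unadjusted p under 0.05 in the lower direction (3.63% of all genes did) and none in the higher, with a median of -0.14. The 10 became 1 with library totals, 19 with GC offsets, 18 without knockout fed replicate 6, 16 without control fed replicate 5 and 6 without knockout fed replicate 4. Ndufb3 of complex I had -0.37 ± 0.13 (SE) and Atp5o of the ATP synthase -0.25 ± 0.09 (SE). Of 47 proteasome genes 40 had a log2 fold change below 0, 8 had an unadjusted p under 0.05 in the lower direction and 1 in the higher, with a median of -0.14. The 8 became 3 with library totals, 12 with GC offsets and 5 without control fed replicate 1. Its base subunit Psmc5 had -0.36 ± 0.11 (SE) and the ubiquitin receptor Psmd4 -0.38 ± 0.14 (SE). The 76 cytosolic ribosomal protein genes had a median of -0.11, with 63 below 0 and 5 at an unadjusted p under 0.05 in the lower direction. The 5 became 0 with library totals and 12 with GC offsets, and 17 without control fed replicate 5, 10 without knockout fed replicate 6 and 2 without control fed replicate 2. Of 13 cytosolic chaperones 3 had an unadjusted p under 0.05 in the lower direction (5 without control fed replicate 4), led by Hspa8 (-0.42 ± 0.11 SE) and Hsp90aa1 (-0.44 ± 0.15 SE). None passed in edgeR, and DESeq2 called Hspa8.

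Gene length moved with genotype in fed livers among genes whose mean log2 CPM was 2 or more. These genes were put in 5 bins by length. From the shortest to the longest, the median log2 fold change was -0.10, -0.03, 0.00, 0.04 and 0.10. The level of the longest bin relative to the shortest lay between -0.217 and -0.079 (log2) in the control fed libraries, and between -0.133 and 0.205 in the knockouts. Knockout fed replicate 6 was inside the control range and the other 5 were above it. By GC content the bin medians ran from 0.11 in the lowest to -0.06 in the highest, and knockout fed replicate 5 stood apart with -0.533 for the highest bin relative to the lowest. With each library's length trend as an offset, the endothelial median was 0.43 with 12 members at an unadjusted p under 0.05. The same fit gave the respiratory chain -0.10 with 5, the proteasome -0.13 with 8 and the Mup genes -0.90 with 4. Kdr then had a log2 fold change of 0.76, Orm1 one of -0.49 and Gpt2 was again the 1 gene called. Slc4a4 had 0.43 and Paqr9 0.51 in that fit.

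**Figure D5:**
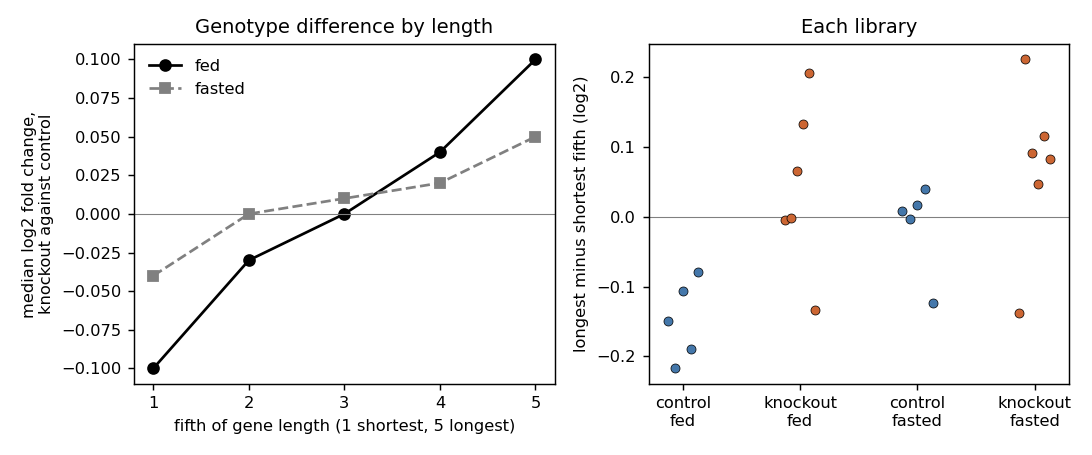
Left, median log2 fold change of knockout against control in 5 bins of gene length (1 shortest, 5 longest), in fed (black) and fasted livers (grey). Right, the mean-centred log2 level of the longest bin minus that of the shortest in each library; in fed livers the 5 controls lie at or under -0.079 and the knockouts reach 0.205.

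The neighbours of Gpt2 were examined as a check of the locus. Within 1 Mb of its start 39 genes were tested. None was called and none had an unadjusted p under 0.05, the smallest being 0.0524. Their median log2 fold change was -0.06, with 16 above 0.

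The genotype difference itself was tested for dependence on feeding. By edgeR's interaction test 1 gene of 16757 was called (0.00597%), and 786 had an unadjusted p under 0.05 (4.69%). That gene was Zfp871, a zinc finger protein. It stood at 18.3, 26.3, 11.9, 19.7 and 18.4 CPM in control fed libraries 1 to 5 and at 27.6 to 43.7 CPM in the knockout fed libraries (median 31.8 CPM), without overlap. The log2 fold change was 0.81 ± 0.17 (SE) in fed and -0.61 ± 0.17 (SE) in fasted livers. The difference of 1.42 ± 0.25 (SE) had an adjusted p of 0.0284 in edgeR's test. The call ended in 13 of the 22 fits that left out 1 library. Over these 22 fits the adjusted p reached 0.112 in edgeR's test, and the difference stayed between 1.29 and 1.57. For Dll4 the interaction had an unadjusted p of 0.000307, for Orm1 0.000338 and for Cxcl12, a chemokine with a fed log2 fold change of 0.56 ± 0.13 (SE), 0.000268. These did not pass, with an adjusted p of 0.473 for each of them in edgeR's interaction test. For Msn the interaction p was 0.79, which does not show that the 2 feeding states were alike.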

How the data were processed

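Polyadenylated RNA of mouse liver was sequenced, and the deposited files hold raw counts of reads per gene. Per the submitters' processing notes the tools were bcl2fastq, STAR 2.5.1a and featureCounts 1.4.6-p5 with GRCm38. The sources used here give no annotation release or strand setting, so reads of overlapping antisense genes cannot be told apart. Symbols came from GENCODE M21, which matched 40340 of 41388 gene IDs. One control fed file is truncated, and the library labelled control fasted replicate 4 carries kidney transcripts; both were left out. Replicates were numbered in accession order.

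Counts of 22 libraries in 4 groups were fitted together with edgeR 4.0.16 (TMM factors, filterByExpr with a minimum count of 10 and total of 15, robust quasi-likelihood), and the fed genotype contrast and the genotype by feeding interaction were tested with Benjamini-Hochberg adjustment at 0.05. The SE is the log2 fold change divided by the root of F. Single values of Gpt and Gpt2 were also tested by exact permutation. The procedure was tested on simulated data. Alternatives covered normalization, filters, DESeq2 1.42.0, limma 3.58.1 (voom with sample weights), left-out libraries, title-number clusters as a random block and, chosen after seeing the data, length and GC offsets.

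Named genes were the targeted pair, the 10 smallest p, and the 1 or 2 leading members by p of a described list. Ptprb, Tek, Eng, Cdh5, Stab1, Stab2, Clec4g, Saa1, Saa2, Lcn2, Mup20, Orm3, Idi1, Thrsp, Cxcl12, Pck1, G6pc, Pcx, Mpc1, Mpc2, Acsl1, Acadm, Acot8, Cyp4a10, Cyp4a14 and Cpt1a were named after their values were seen. The members and lists were chosen with earlier results of these data known. Some results are not reported here.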

Additional observations from a re-analysis of the deposited data

Results flagged for a closer look

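In 150 groups of 5 or 6 fed libraries, for named genes and summed markers, 19 held a library whose gap to its nearest neighbour was large for the range of its group. Chance flags about 1 in 20 groups. No explanation was weighed.

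Control fed replicate 5 held 7 of these. It had 498.5 CPM of Gpt (365.0 to 383.3 CPM in the other 4 controls), 419.3 CPM of Saa1 (31.1 to 58.6), 155.7 CPM of Saa2 (6.997 to 12.9) and 78.32 CPM of Lcn2 (9.44 to 15.3). It also had 5.325 CPM of Cyp17a1 (0.951 to 2.07), 0.1673 CPM of Fgf21 (0 to 0.0247) and 0.1115 CPM of Psat1, which was at 0 in the other 4. Control fed replicate 3 had 21.34 CPM of Krt19 (0.422 to 1.51) and 91.17 CPM of Insr (113.1 to 119.3). Control fed replicate 1 had 88.32 CPM of Acat2 (52.5 to 61.6), and control fed replicate 2 had 27.95 CPM of Mpc1 (23.8 to 24.4).

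Among knockout fed libraries replicate 3 stood above the other 5 in Msn at 27.5 CPM (16.0 to 19.5), Stab2 at 70.12 CPM (46.9 to 52.6), the endothelial sum at 742.1 CPM (539.9 to 612.9) and the Kupffer sum at 428.0 CPM (287.4 to 314.1). Replicate 6 had 8.583 CPM of Socs3 (3.24 to 4.80) and 21.39 CPM of Clec4g, below the others at 26.9 to 28.7 CPM. Replicate 4 had 0.2492 CPM of Moxd1 (0 to 0.0510), and replicate 5 had 182.7 CPM of Slc25a13 (155.5 to 163.8).

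The genotype effect on Zfp871 differed between feeding states by 1.42 on the log2 scale in edgeR's interaction test. Outside the comparison, the summed kidney tubule markers reached 13370 CPM in the library labelled control fasted replicate 4, against at most 18.97 CPM in any other complete library.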

How the results depend on the processing

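The number of genes called in fed livers was 1 with RLE factors, a mean CPM filter of 1, the fed libraries alone, length or GC offsets, voom weights or the block. It was 5 with library totals, which shift the median of all genes by 0.0433 (log2), 12 with no filter, 2 without mitochondrial and the 20 most abundant genes, 68 with DESeq2 and 0 in all complete libraries. Leaving out 1 library gave 1 to 13. The interaction count was 6 with DESeq2, 0 in all complete libraries and 0 to 1 on leaving out 1 library. Gpt2 passed in 33 of 34 alternatives, with log2 fold changes from -2.70 to -2.54.

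Over 71 genes and 2407 alternative values, 2350 kept direction and side of the threshold, 49 passed it newly (15 genes), 1 no longer passed and 7 reversed (3 genes). Leaving out 1 library gave Krt19 from -2.36 (without control fed replicate 4) to 0.36 (control fed replicate 3). It gave Pck1 from -0.35 (control fed replicate 3) to 0.21 (control fed replicate 2), and Pck1 was 0.0221 with the block. It gave Pcx from -0.0252 (control fed replicate 3) to 0.0918 (control fed replicate 1), and Pcx was -0.02295 with length offsets. The cause was not tested. List medians moved beyond the spread of libraries in 21 of 976 cases. No paired analysis was possible because the labels give the groups no shared replicate numbers. Clusters of neighbouring title numbers, 3 of which hold both genotypes in fed livers, were fitted as a random block instead, with a consensus correlation of -0.0128. Precision is limited by 5 and 6 libraries, and the median SE of a log2 fold change was 0.287.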
